A study of Mus musculus with 24 samples.

Results

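The transcripts of 10 genes that tissues use to take up and ferment glucose and to answer low oxygen were followed in RNA from tissue labelled as mouse choroid, the vascular layer behind the retina. The study's methods use this word for pigment epithelium, choroid and sclera as one tissue. The genes were given as a list of names, chosen with earlier results of these data known, and matched by symbol to 10 of the 56065 genes in the table. They are Slc2a1, Hk2, Pfkfb3, Pgk1 and Ldha of glycolysis and Egln3, Ankrd37, Bnip3, Adm and Car9 among the targets of hypoxia. Each had a single entry, and all 10 passed the filter on low values in the 24 libraries. The groups were wild type mice without laser (4 libraries), Ceacam1-/- mice without laser (4), wild type mice with laser (9) and Ceacam1-/- mice with laser (7). All mice were on a C57BL/6J background and, unless stated otherwise, 6 to 8 weeks old and of both sexes, and the wild type mice were littermates. Ceacam1-/- mice carry a deletion of exons 1 and 2 of Ceacam1, a cell adhesion receptor of endothelial and immune cells, in every cell of the body. In the laser groups, 6 spots (150 mW, 200 µm, 100 ms) were placed in each eye to break the membrane under the pigment epithelium, a procedure used to induce choroidal neovascularization. The labels give neither the time from laser to tissue collection nor the sex of a mouse, and they do not say whether each library came from a separate mouse, so that p-values measure the spread between these libraries.

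When oxygen is plentiful, prolyl hydroxylases of the Egln family mark the α subunits of the hypoxia-inducible factors (HIF) for destruction through the Vhl protein. When oxygen is scarce, the subunits persist, pair with Arnt and bind a short DNA motif near their target genes, among them glucose transporters, nearly every glycolytic enzyme, Vegfa and Egln3 itself. In the eye, photoreceptors ferment much of their glucose to lactate even with oxygen present, and the pigment epithelium passes glucose from the choroid to them. Because the choroid lies between these layers and the muscles outside the eye, neighbouring tissue can enter a dissected sample.

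Libraries stood apart in this respect. The summed normalized counts of 12 rod genes ranged from 7974 in library 25 to 1119050 in library 18. Libraries 14, 15 and 18, all Ceacam1-/- with laser, held 1083890, 611092 and 1119050, while the other 4 libraries of that group held 9874 to 163242. Wild type laser libraries held 9530 to 239349. Without laser, library 21 (wild type, 590597) and library 23 (Ceacam1-/-, 639761) were also rich in rod transcripts. The sum of 12 skeletal muscle genes ranged from 18894 in library 14 to 1394790 in library 25, and that of 7 surface epithelium keratin and adhesion genes from 109 in library 26 to 450957 in library 15. No gene of these 3 lists was at 0 in every library. Endothelial transcripts, of which choroidal and retinal vessels share some, were found in every library. The sum of 10 endothelial genes, most abundantly Plvap, was 19032 to 37124 in the wild type libraries and 18476 to 37219 in the Ceacam1-/- libraries without laser, and 27747 to 50899 in wild type libraries with laser. It was 9864, 19093 and 13018 in libraries 14, 15 and 18 and 30089 to 45484 in the other 4 Ceacam1-/- laser libraries. Laser effects in Ceacam1-/- mice are therefore given with and without libraries 14, 15 and 18. This choice was made after the data were seen, and it leaves in library 23, whose rod sum was above that of library 15. In bulk tissue, fewer cells of a type and less RNA per cell cannot be told apart.

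Ceacam1 transcripts were counted over the whole gene, including the exons that the deletion leaves in place. The counts were 958, 5027, 1242 and 4596 in the wild type and 405, 505, 508 and 1171 in the Ceacam1-/- libraries without laser. With laser they ranged from 774 to 8367 (median 996) in wild type and from 68 to 905 (median 335) in Ceacam1-/- mice. The lower values lay in the Ceacam1-/- groups, although the groups overlapped. The log2 difference was -1.95 (SE 0.60, adjusted p = 0.999, limma) without laser and -2.17 (SE 0.52, adjusted p = 0.104, limma) with laser.

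HIF binds DNA at a core written as ACGTG or GCGTG. Promoters were searched for these letters on both strands in the 250 bases upstream of the start of each gene's canonical transcript (GENCODE annotation, mouse build GRCm39). ACGTG was present in 6 of the 10 windows, against 17% of 21757 protein-coding promoters of the same length, and GCGTG in 5 of 10, against 31.2%. At least 1 of these cores lay in 8 of the 10 windows, compared with 41.3% of all. The letters CACGTG, an E-box that reads as ACGTG on both strands, were found in the windows of Ldha and Bnip3, against 6.26% of all promoters. Shown here are the windows of the 2 genes that passed the test after laser in wild type mice, Pfkfb3 and Bnip3, and that of Pgk1, whose laser difference was the smallest in both genotypes, 5′ to 3′ on the strand of the gene, with each ACGTG or GCGTG of either strand in capitals.
Pfkfb3, chr2:11507418-11507667, minus strand: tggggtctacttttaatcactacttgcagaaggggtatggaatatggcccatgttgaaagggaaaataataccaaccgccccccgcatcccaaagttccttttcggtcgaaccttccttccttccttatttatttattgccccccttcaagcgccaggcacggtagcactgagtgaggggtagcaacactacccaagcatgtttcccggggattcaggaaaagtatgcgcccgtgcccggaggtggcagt
Bnip3, chr7:138511254-138511503, minus strand: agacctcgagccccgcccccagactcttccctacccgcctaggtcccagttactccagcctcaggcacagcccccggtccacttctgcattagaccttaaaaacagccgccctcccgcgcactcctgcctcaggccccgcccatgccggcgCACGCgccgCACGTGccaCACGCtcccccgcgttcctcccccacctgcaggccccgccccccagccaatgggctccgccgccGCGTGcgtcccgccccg
Pgk1, chrX:105230456-105230705, plus strand: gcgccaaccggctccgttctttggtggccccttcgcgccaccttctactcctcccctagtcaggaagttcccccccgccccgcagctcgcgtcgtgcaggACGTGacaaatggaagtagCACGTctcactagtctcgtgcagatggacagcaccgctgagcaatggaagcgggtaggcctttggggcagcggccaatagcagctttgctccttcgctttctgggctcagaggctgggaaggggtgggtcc
The Bnip3 window held 2 ACGTG and 3 GCGTG, counting the E-box once on each strand. Pgk1 had 2 ACGTG, whereas no core lay in the Pfkfb3 window, which says only that these letters were not in these 250 bases. Pfkfb3 has 30 annotated transcripts, of which only the start of the canonical one was searched. Hk2 (2 ACGTG), Ldha (5 ACGTG and 1 GCGTG), Egln3 (1 ACGTG), Ankrd37 (1 ACGTG and 2 GCGTG), Slc2a1 (1 GCGTG) and Adm (2 GCGTG) held a core as well, and Car9 held none.

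The genes lie on GRCm39 at chr4:118965908-118996365 (Slc2a1), chr6:82699740-82751469 (Hk2), chr2:11476244-11558888 (Pfkfb3), chrX:105230706-105247305 (Pgk1), chr7:46490899-46505061 (Ldha), chr12:54225767-54250673 (Egln3), chr8:46449939-46458744 (Ankrd37), chr7:138490690-138511253 (Bnip3), chr7:110226858-110229027 (Adm) and chr4:43506966-43513729 (Car9), and all are protein-coding. Levels of different genes were set beside each other only per kilobase of the canonical transcript. Ldha, which reduces pyruvate to lactate, was the most abundant member with 17095 ± 4718 normalized counts per kb (SD, n = 24). Pgk1, the first enzyme of glycolysis to yield ATP, followed with 4380 ± 1150 per kb (SD, n = 24). Slc2a1, which encodes the glucose transporter Glut1, had 2370 ± 883 per kb (SD, n = 24), and Bnip3, a receptor of mitophagy, 1062 ± 537 per kb (SD, n = 24). Ldha lay above the rest by more than its spread, whereas the ranges of mean ± SD of Pgk1 and Slc2a1, and of Slc2a1 and Bnip3, met at their ends. Adm (438 ± 173), Egln3 (344 ± 540), Hk2 (271 ± 174), Ankrd37 (227 ± 225) and Pfkfb3 (151 ± 53, each SD, n = 24, per kb) followed, and neighbours from Bnip3 to Pfkfb3 did not differ beyond their spread. Car9, a surface carbonic anhydrase that tissues express under severe hypoxia, was the lowest with 12.3 ± 8.6 per kb (SD, n = 24). The exons of Ankrd37 share 56.4% of their bases with Ufsp2 and 22.2% with Lrp2bp on the opposite strand, and those of Car9 29.7% with an antisense transcript, so that without strand the reads of these pairs cannot be told apart. Ufsp2 had a mean of 1280 normalized counts. Ldha shares 29.4%, Adm 20.8%, Bnip3 13.8% and Slc2a1 5.6% of its exon bases with opposite-strand non-coding transcripts. The named pseudogene copies of Pgk1 and Ldha summed to at most 0.0461% and 0.0851% of the parent gene in any library.

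**Figure D1:**
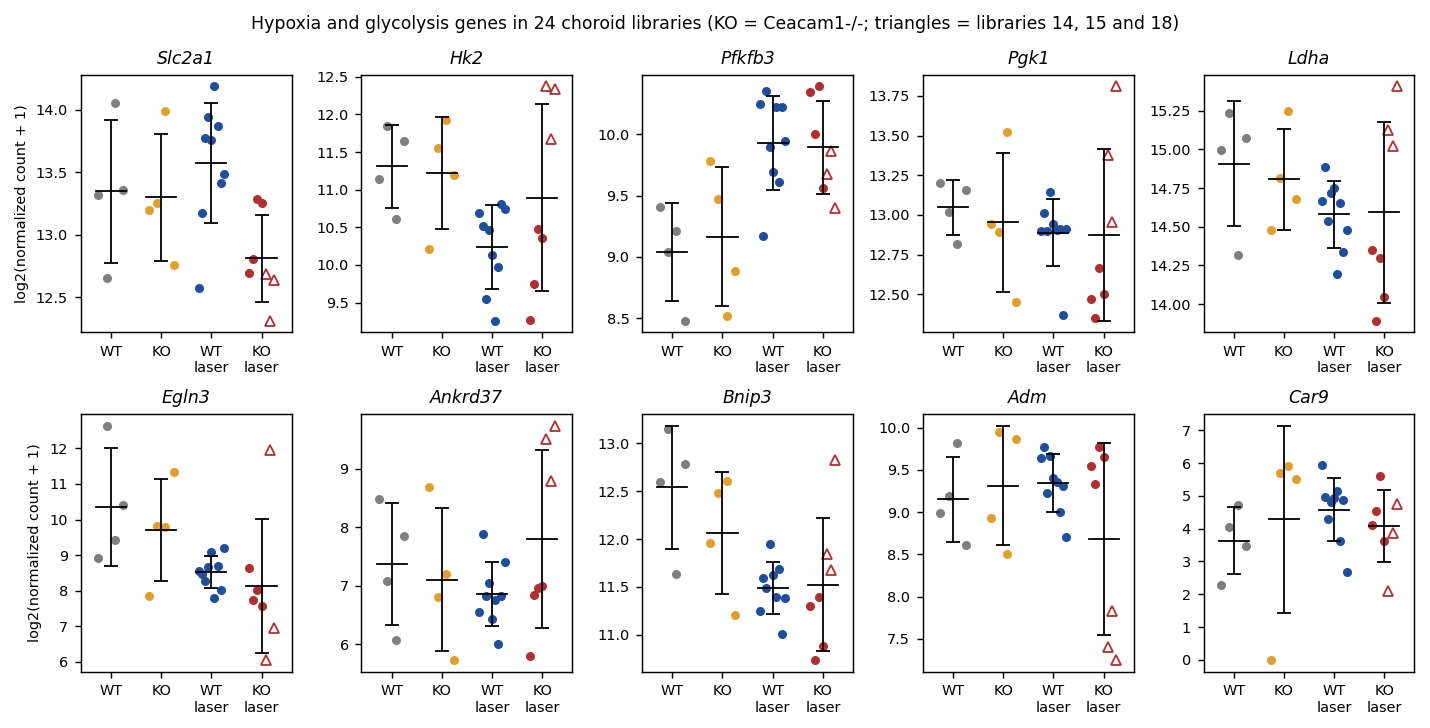
Normalized counts of the 10 genes on the log2(count + 1) scale, 1 point per library, in wild type (WT) and Ceacam1-/- (KO) mice without and with laser. Horizontal lines are group means and error bars are SD. Open triangles mark libraries 14, 15 and 18, which held the 3 lowest Adm counts and the highest 3 Ankrd37 counts of all 24 libraries.

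The first comparison asked how laser injury changed these transcripts in wild type mice. Pfkfb3 rose and Bnip3 fell. The other 8 genes did not pass the test, Slc2a1, Adm and Car9 with positive and Hk2, Pgk1, Ldha, Egln3 and Ankrd37 with negative log2 differences. The 2 of 10 compare with 5.28% of 19950 genes tested (4.23% higher and 1.05% lower after laser). The median log2 difference of the 10 was -0.24, against -0.10 for all genes. In Ceacam1-/- mice none of the 10 passed (0 of 10 in limma, against 3.72% of genes, with Pfkfb3 alone at an unadjusted p under 0.05), with a median of -0.27 against 0.02 for all genes. Without libraries 14, 15 and 18, Hk2 and Bnip3 fell and Pfkfb3 rose in Ceacam1-/- mice (3 of 10, against 10.2% of 19723 genes). The tests are from limma with Benjamini-Hochberg adjustment over all genes, on log2(normalized count + 1), beside two-sided exact permutation tests of single genes that are not adjusted. The calls in wild type mice were close to the threshold, and neither gene passed with a covariate for Y-linked transcripts. The 4 Y-linked genes had a median log2 difference of 3.28 between laser and no laser in wild type and of -0.61 in Ceacam1-/- mice. Over 12 planned settings, this covariate among them, the wild type difference was 0.83 to 1.25 for Pfkfb3 and -1.14 to -0.92 for Bnip3. Since sex is not in the labels, its part in the results was not tested.

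**Figure D2:**
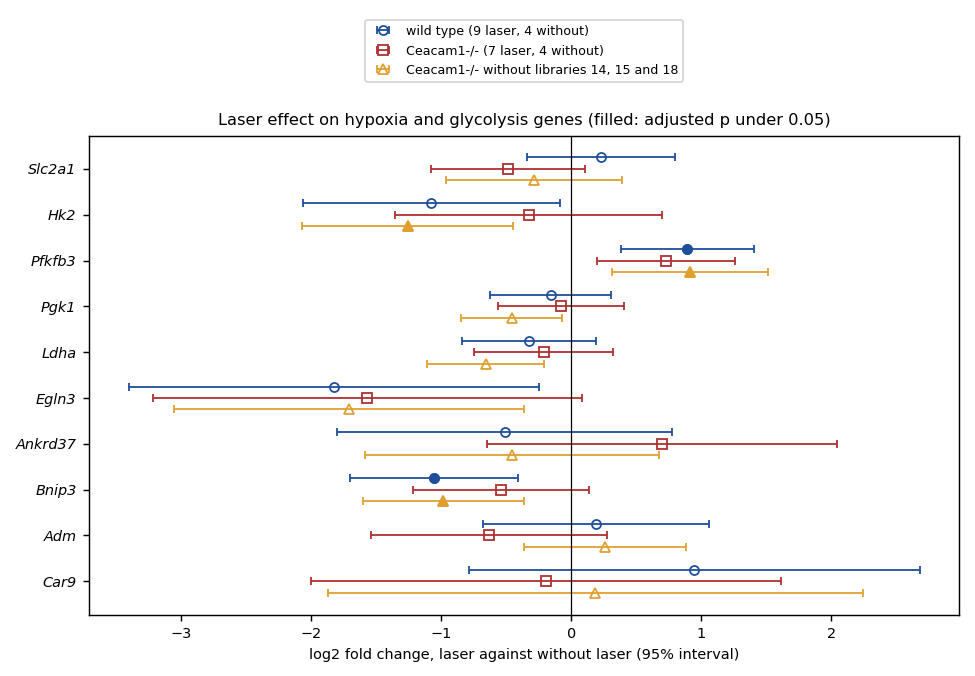
Log2 fold change after laser for each gene with its 95% interval (limma), in wild type mice, in Ceacam1-/- mice and in Ceacam1-/- mice without libraries 14, 15 and 18. Filled symbols have an adjusted p under 0.05, which are Pfkfb3 and Bnip3 in wild type mice and Hk2, Pfkfb3 and Bnip3 in Ceacam1-/- mice without the 3 libraries.

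Pfkfb3 makes fructose-2,6-bisphosphate, the strongest activator of phosphofructokinase, and thereby sets the pace of glycolysis. Its counts were 679, 527, 593 and 356 in wild type libraries without laser and ranged from 577 to 1304 (median 985) with laser. Of the 9 laser libraries, 8 lay above every library without laser. The difference was 0.89 on the log2 scale (SE 0.25, 1.86-fold, adjusted p = 0.0344, limma), and the exact permutation p was 0.0042. When each of the 13 libraries was left out in turn, the call was lost in 6 cases (highest adjusted p = 0.187, limma), with the direction unchanged. The Ceacam1-/- counts were 879, 711, 365 and 473 without laser and 676 to 1342 (median 930) with laser. The groups overlapped, and 4 of 7 laser libraries lay above all 4 others. The difference was 0.73 (SE 0.26, adjusted p = 0.108, limma; exact permutation p = 0.0364), and it was 0.91 (SE 0.29, adjusted p = 0.0487, limma) without libraries 14, 15 and 18. The summed counts of 12 myeloid genes, most abundantly Lyz2, were higher after laser as well, from 12750 to 26288 in wild type libraries without laser to 61157 to 149849 with laser. Ceacam1-/- libraries held 14483 to 20389 without laser and 75887 to 108915 in the laser libraries other than 14, 15 and 18, which held 34638, 29340 and 19580. The part of these cells in the Pfkfb3 result was not tested.

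Hk2, the inducible hexokinase that traps glucose in the cell and the main hexokinase of photoreceptors, went the other way in wild type mice. Counts were 2257, 3693, 1568 and 3208 without laser and 611 to 1802 (median 1413) with laser. Of the 9 laser libraries, 6 lay below all 4 others. The log2 difference of -1.08 (SE 0.48) did not pass over all genes (adjusted p = 0.204, limma), with an exact permutation p of 0.0084. Among Ceacam1-/- libraries without laser, counts were 1181, 2995, 3901 and 2352. The laser libraries formed separate sets, with 5313, 3275 and 5178 in libraries 14, 15 and 18 and 616, 861, 1426 and 1310 in the others. With all 7 libraries the difference was -0.33 (SE 0.50, adjusted p = 0.745, limma), and without the 3 it was -1.26 (SE 0.39, adjusted p = 0.0441, limma). Of the libraries rich in rod transcripts but without laser, library 23 had the lowest Hk2 count of its group (1181). Library 21 held 2257, above library 26 of its group (1568). The part of rod tissue in the Hk2 counts was not tested.

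Slc2a1 supplies glucose to the pigment epithelium and, across it, to the retina. Its counts were 10203, 6440, 16995 and 10501 in wild type and 9385, 9754, 16238 and 6904 in Ceacam1-/- libraries without laser. The highest value of each of these groups belonged to the library with the highest sum of 9 pigment epithelium genes, library 26 (706063) and library 25 (977117). With laser, the counts were 6106 to 18655 (median 13829) in wild type and 5080 to 10003 (median 6616) in Ceacam1-/- mice. The laser differences of 0.23 (SE 0.27, adjusted p = 0.658, limma) in wild type and -0.49 (SE 0.29, adjusted p = 0.353, limma) in Ceacam1-/- mice did not pass the test, nor did that of -0.29 (SE 0.32, adjusted p = 0.646, limma) without libraries 14, 15 and 18.

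With all libraries, Pgk1 had the smallest laser difference of the 10 genes in both genotypes. Its counts were 9409, 8299, 7199 and 9133 in wild type libraries without laser and 5284 to 9049 (median 7695) with laser, a log2 difference of -0.16 (SE 0.22, adjusted p = 0.708, limma). The Ceacam1-/- libraries held 7866, 7599, 11792 and 5610 without laser and 5224 to 14373 (median 6490) with laser, a difference of -0.08 (SE 0.23, adjusted p = 0.878, limma), which was -0.46 (SE 0.19, adjusted p = 0.130, limma) without libraries 14, 15 and 18. With all libraries the intervals were -0.62 to 0.30 and -0.56 to 0.40, and differences within these bounds are compatible with the data. Ldha counts were 32738, 38565, 20452 and 34466 in wild type libraries without laser and 18774 to 30243 (median 25794) with laser, with a difference of -0.33 (SE 0.25, adjusted p = 0.473, limma). Without laser, the Ceacam1-/- libraries held 22821, 28851, 39002 and 26187. Libraries 14, 15 and 18 held 35775, 33269 and 43486 and the other 4 laser libraries 15213 to 20900, all 4 below every library without laser. The Ldha difference was -0.21 (SE 0.26, adjusted p = 0.676, limma) with these 3 libraries and -0.66 (SE 0.22, adjusted p = 0.0558, limma) without them.

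Bnip3, which HIF induces to remove mitochondria, fell after laser in wild type mice. Counts were 6207, 9060, 3184 and 7042 without laser and 2060 to 3937 (median 2870) with laser. Here 7 of the 9 laser libraries lay below all 4 others. The log2 difference was -1.05 (SE 0.31, adjusted p = 0.0499, limma), a 2.08-fold decrease, with an exact permutation p of 0.0042. When each of the 13 libraries was left out in turn, the call was lost in 11 cases (highest adjusted p = 0.184, limma), with the direction unchanged. Counts of the Ceacam1-/- libraries were 3983, 5703, 6221 and 2355 without laser and 1705 to 7236 (median 2681) with laser. The highest laser value was that of library 18, and the groups overlapped. The difference was -0.54 (SE 0.33, adjusted p = 0.370, limma) and, without libraries 14, 15 and 18, -0.98 (SE 0.30, adjusted p = 0.0395, limma). The summed muscle genes were 433441 to 824747 in wild type libraries without laser and 116711 to 485564 with laser. They were 76143 to 1394790 and 18894 to 319308 in Ceacam1-/- mice. With the muscle score alone as a covariate, a planned setting, both Bnip3 and Pfkfb3 passed in wild type mice. Over the 12 planned settings the wild type difference was -1.14 to -0.92 for Bnip3 and 0.83 to 1.25 for Pfkfb3. When single libraries were left out, it was -1.36 to -0.85 for Bnip3 and 0.71 to 1.02 for Pfkfb3. With rod and muscle scores together, chosen after the data were seen, the wild type difference was -0.53 for Bnip3 (adjusted p = 0.387, limma) and 0.62 for Pfkfb3 (adjusted p = 0.239, limma).

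Egln3, a prolyl hydroxylase that HIF induces and that acts back on HIF, reached the largest SD relative to its mean in counts per kb. The counts were 486, 6382, 681 and 1368 in wild type libraries without laser and 220 to 591 (median 373) with laser. Of the 9 laser libraries 7 lay below all 4 others, and the log2 difference was -1.82 (SE 0.76, adjusted p = 0.176, limma; exact permutation p = 0.0042). Ceacam1-/- mice had counts of 228, 903, 883 and 2607 without laser and 65 to 3941 (median 214) with laser, a difference of -1.57 (SE 0.80, adjusted p = 0.275, limma), and of -1.71 (SE 0.65, adjusted p = 0.100, limma) without libraries 14, 15 and 18. In each of the 4 groups the highest Egln3 count came from the library with the highest sum of surface epithelium genes, which were library 22 (325565), library 28 (442336), library 19 (127112) and library 15 (450957). When single libraries were left out, the wild type difference was -1.06 without library 22. The Ceacam1-/- difference was -2.20 (adjusted p = 0.0498, limma) without library 15 and -1.02 without library 28. The setting without the 5 libraries rich in rod transcripts (14, 15, 18, 21 and 23) was chosen after the data were seen. It removes the lowest Egln3 count of each group without laser (486 and 228) and the highest with laser (3941). There Egln3 fell by 2.30 in wild type (adjusted p = 0.0047, limma) and by 2.33 in Ceacam1-/- mice (adjusted p = 0.0070, limma). The wild type difference was also -2.30 without library 21 alone. When single libraries were left out, no wild type adjusted p of Egln3 was under 0.158 (limma). With the 5 libraries left out, Hk2, Pfkfb3, Egln3 and Bnip3 passed in wild type mice (4 of 10, against 8.39% of genes). These 4 and Ldha passed in Ceacam1-/- mice (5 of 10, against 14.9%).

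Ankrd37, a small ankyrin repeat protein and a direct HIF target, was highest in the libraries richest in rod transcripts. Its counts were 357, 135, 66 and 230 in wild type and 410, 111, 147 and 52 in Ceacam1-/- libraries without laser. With laser they were 63 to 237 (median 112) in wild type mice. Libraries 14, 15 and 18 held 731, 441 and 854, and the other 4 Ceacam1-/- laser libraries held 55 to 127. The 5 libraries richest in rod transcripts had the 5 highest Ankrd37 counts of all 24. What rod tissue contributed to these counts was not tested. The laser difference was -0.51 (SE 0.62, adjusted p = 0.662, limma) in wild type and 0.70 (SE 0.65, adjusted p = 0.573, limma) in Ceacam1-/- mice, where it turned to -0.46 (SE 0.54, adjusted p = 0.668, limma) without the 3 libraries. Leaving out single libraries gave -0.95 (without library 26) to -0.14 (without library 21) in wild type mice. In Ceacam1-/- mice it gave 0.24 (without library 28) to 1.23 (without library 23).

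Adm, the vasodilator peptide adrenomedullin, was lowest in libraries 14, 15 and 18. Counts were 505, 585, 900 and 391 in wild type and 487, 988, 363 and 934 in Ceacam1-/- libraries without laser, and 415 to 875 (median 657) in wild type libraries with laser. Libraries 14, 15 and 18 held 168, 227 and 151, below each of the other 21 libraries, and the other 4 Ceacam1-/- laser libraries 642 to 875. The rod-rich libraries without laser, 21 and 23, held 505 and 487, each above another library of its group, and library 25, with the lowest rod sum, held 363. The part of rod tissue in the Adm counts was not tested. The laser difference was 0.19 (SE 0.42, adjusted p = 0.819, limma) in wild type and -0.63 (SE 0.44, adjusted p = 0.437, limma) in Ceacam1-/- mice, and 0.26 (SE 0.30, adjusted p = 0.657, limma) without the 3 libraries. Car9 counts were 3.90, 15.6, 25.4 and 10.2 in wild type and 0, 51.3, 59.5 and 44.3 in Ceacam1-/- libraries without laser, and 5.37 to 60.2 and 3.28 to 47.5 with laser. No laser difference of Car9 passed, with intervals of the laser difference of -0.79 to 2.68 in wild type and -2.0 to 1.61 in Ceacam1-/- mice (-1.87 to 2.24 without libraries 14, 15 and 18). With the muscle score as a covariate it was 1.82 in wild type mice (adjusted p = 0.0374, limma).

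**Figure D3:**
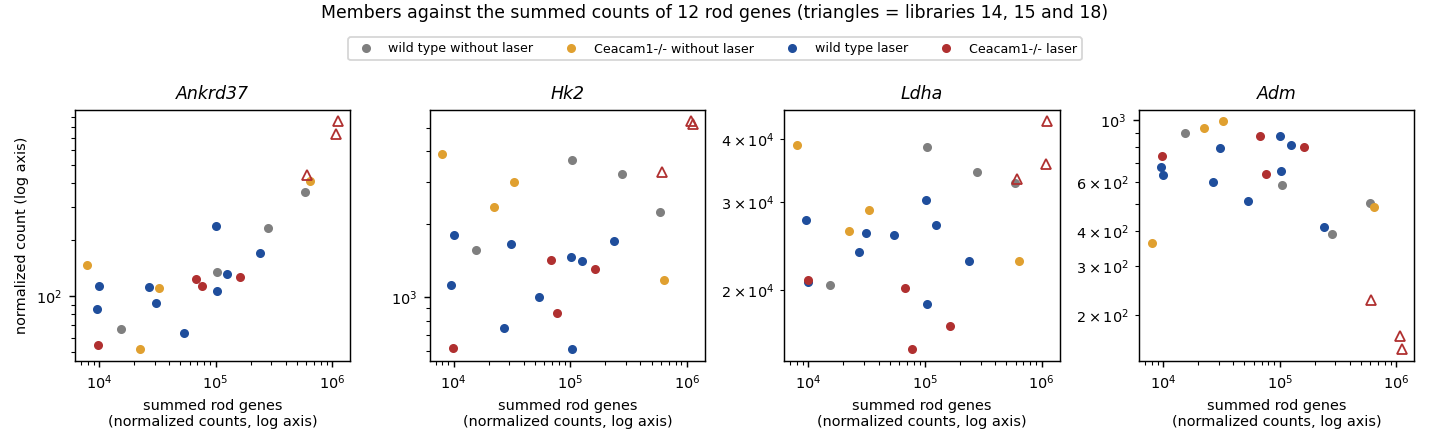
Normalized counts of Ankrd37, Hk2, Ldha and Adm in each of the 24 libraries against the summed normalized counts of 12 rod genes, both on log axes. Triangles are libraries 14, 15 and 18, with Ankrd37 at 441 to 854 and Adm at 151 to 227, and points are coloured by group.

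Whether the answer to laser differed between genotypes was tested as the interaction of laser and genotype. No gene passed among 19950 (0 of 10 members, background 0%), with 1241 genes at an unadjusted p under 0.05. The differences between the laser effects of the 10 genes, Ceacam1-/- minus wild type, lay between -1.14 for Car9 (interval -3.65 to 1.37) and 1.21 for Ankrd37 (interval -0.65 to 3.08). Without libraries 14, 15 and 18, the value for Ankrd37 was 0.06 (SE 0.71) and that for Hk2 moved from 0.75 (SE 0.69) to -0.18 (SE 0.51). For Pfkfb3 the interaction was -0.16 (SE 0.36, interval -0.90 to 0.57) and for Bnip3 0.52 (SE 0.45, interval -0.42 to 1.45). Without the 3 libraries these were 0.02 (SE 0.38) and 0.07 (SE 0.39). Intervals of this width hold effects as large as the laser differences themselves.

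Deletion of Ceacam1 was compared with wild type in mice without laser and in mice with laser. Without laser, no gene of the 10 and none of 20057 passed (background 0%), and 307 genes had an unadjusted p under 0.05. The log2 differences, Ceacam1-/- minus wild type, were -0.05 for Slc2a1 (SE 0.36), -0.09 for Hk2 (SE 0.40), 0.13 for Pfkfb3 (SE 0.33), -0.09 for Pgk1 (SE 0.25) and -0.10 for Ldha (SE 0.31). Those of the hypoxia targets were -0.65 for Egln3 (SE 0.91), -0.27 for Ankrd37 (SE 0.70), -0.48 for Bnip3 (SE 0.40), 0.16 for Adm (SE 0.39) and 0.64 for Car9 (interval -2.35 to 3.63). The groups overlapped for each of the 10 genes, as they did for Ceacam1 itself, and the share of all genes that overlapped was not counted. With 4 libraries in each group, the interval of the narrowest of these differences, that of Pgk1, was -0.66 to 0.47.

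With laser, 0 of 10 passed in limma, against 0.0202% of 19757 genes. Slc2a1 was the only member with an unadjusted p under 0.05, with a difference of -0.76 (SE 0.21, adjusted p = 0.114, limma; exact permutation p = 0.0056). Its 7 Ceacam1-/- laser libraries held 6616, 7142, 10003, 9771, 6573, 5080 and 6383 counts, and 7 of the 9 wild type laser libraries lay above all of them. Without libraries 14, 15 and 18 the difference was -0.56 (SE 0.24, adjusted p = 0.543, limma). The pigment epithelium sum was 234577 to 537552 in the wild type laser libraries, 181861 to 322393 in Ceacam1-/- libraries 4 to 7, and 71809, 55629 and 41797 in libraries 14, 15 and 18. Its part in the Slc2a1 difference was not tested. The 4 Y-linked genes had a median difference of -4.20 between these groups (-0.28 without laser), and with a covariate for them the Slc2a1 difference was -0.80 (adjusted p = 0.423, limma). Hk2 (0.65, SE 0.42), Ankrd37 (0.95, SE 0.50) and Adm (-0.66, SE 0.37) had differences that turned to -0.27 (SE 0.30), -0.21 (SE 0.32) and 0.23 (SE 0.18) without the 3 libraries.

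The wider pathways were described by lists of further genes. These lists too were chosen with earlier results of these data known, so that their shares beside those of all genes are descriptions only. Of 32 other glycolysis genes, 30 were tested, and after laser in wild type mice Hk3 rose (2.67, SE 0.45, adjusted p = 0.000671, limma), Pdk2 fell (-1.10, SE 0.27, adjusted p = 0.0163, limma) and 28 did not pass. The 2 of 30 compare with 5.28% of all genes. Hk3 is a hexokinase of myeloid cells and Pdk2 a kinase that holds back pyruvate dehydrogenase. The list's median was -0.45 against -0.10 for all genes. In Ceacam1-/- mice Hk3 rose (1.90, SE 0.47, adjusted p = 0.0247, limma), whereas Pdk2 (-1.38), the heart-type lactate dehydrogenase Ldhb (-0.90), Pdk4 (-2.70) and the muscle phosphofructokinase Pfkm (-1.75) fell (5 of 30, against 3.72% of all genes), with a median of -0.24 against 0.02 for all genes. Without libraries 14, 15 and 18, 2 were higher and 6 lower of 30, against 10.2% of all genes, and Hk3 (2.77), Pdk2 (-1.28), Ldhb (-0.90), Pdk4 (-2.22) and Pfkm (-1.62) passed in that setting too. Of the 12 muscle genes all had negative differences in Ceacam1-/- mice (median -2.07), and the part of muscle in these results was not tested.

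Of the 9 oxygen sensing genes, Egln1, the main oxygen-sensing hydroxylase, fell in wild type mice (1 of 9, against 5.28% of all genes; -0.59, SE 0.15, adjusted p = 0.0191, limma), from 4107 ± 654 (SD, n = 4) to 2724 ± 398 (SD, n = 9). In Ceacam1-/- mice its difference was -0.49 (SE 0.15, adjusted p = 0.0764, limma), and 0 of 9 passed, against 3.72%. With libraries 14, 15 and 18 left out, Egln1 differed by -0.53 (SE 0.17, adjusted p = 0.0529, limma), and again 0 of 9 passed, against 10.2%. Hif1a, which encodes the α subunit HIF-1α, was at 7284 ± 3822 (SD, n = 4) and 7428 ± 3438 (SD, n = 9) in wild type mice without and with laser (0.03, SE 0.44), and its difference in Ceacam1-/- mice was 0.91 (SE 0.45, adjusted p = 0.264, limma), and 0.38 (SE 0.47) without the 3 libraries. Epas1, encoding HIF-2α, differed by -0.22 (SE 0.23) and -0.66 (SE 0.24), and Vhl by 0.21 (SE 0.25) and 0.18 (SE 0.26), the Ceacam1-/- values being -0.41 (SE 0.24) and 0.23 (SE 0.30) without them. HIF is regulated mainly at the level of the protein, which was not measured.

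Of 31 other HIF targets, 30 were tested and Epo was too low. In wild type mice 9 rose and 2 fell, against 4.23% of all genes higher and 1.05% lower, with a median of 0.33 against -0.10. Among those that rose with the lowest p were the haem oxygenase Hmox1 (2.69, SE 0.32, adjusted p = 1.32e-05, limma), the collagen crosslinker Lox (3.12, SE 0.52) and the lipid droplet protein Plin2 (1.67, SE 0.32). Vegfa, the growth factor of choroidal vessels, fell from 8412 ± 1928 (SD, n = 4) to 4653 ± 1264 (SD, n = 9), a difference of -0.88 (SE 0.24, adjusted p = 0.0296, limma), and Narf fell by 0.99. In Ceacam1-/- mice 4 rose, among them Hmox1 (2.00), Lox (2.65) and Rcor2 (1.67), and Vegfa fell (-1.06, adjusted p = 0.0181, limma), 5 of 30 against 3.72% of all genes, with a median of 0.24 against 0.02. Without libraries 14, 15 and 18, 9 rose and 2 fell, against 10.2% of all genes, with Hmox1 at 2.35, Lox at 3.67, Vegfa at -0.92 (adjusted p = 0.0425, limma) and Rcor2 at 1.40 (adjusted p = 0.0676, limma). The genes of this list therefore went in both directions, and the list as a whole was not tested. Hmox1, Lox and Plin2 also answer to signals other than oxygen and are expressed by macrophages or fibroblasts. Of 12 myeloid genes, 11 rose in wild type (median 2.09, against 5.28% of all genes called) and 6 in Ceacam1-/- mice (median 1.41, against 3.72%). Of 7 fibroblast genes, 2 and 1 rose. When libraries 14, 15 and 18 were left out, 11 myeloid and 6 fibroblast genes rose in Ceacam1-/- mice, against 10.2% of all genes called. The part of macrophages and fibroblasts in the HIF target results was not tested. None of the 12 rod genes passed in either genotype, with medians of -1.40 and 2.23, nor did any of 12 muscle genes in wild type mice (median -0.89), while Ryr1 fell in Ceacam1-/- mice (median of the list -2.07). Without the 3 libraries no rod (median 0.43) and no muscle gene (median -1.55) passed in Ceacam1-/- mice. All 9 pigment epithelium genes had negative laser differences in Ceacam1-/- mice (median -1.66), of which Enpp2 passed (-2.25, adjusted p = 0.0420, limma), and 0 passed without the 3 libraries (median -0.66). In wild type mice 0 of 9 passed (median -0.12). The part of this tissue in the Vegfa result was not tested.

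**Figure D4:**
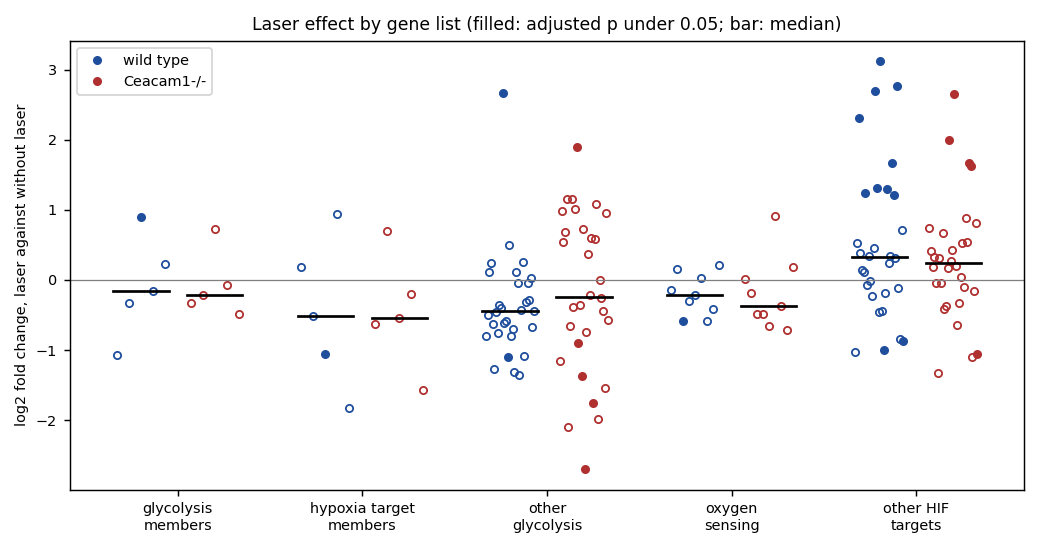
Log2 fold change after laser of the genes tested in 5 lists, in wild type (blue) and Ceacam1-/- mice (red). Each point is a gene, filled points have an adjusted p under 0.05 (limma) and bars are medians, from -0.51 for the hypoxia target members to 0.33 for the other HIF targets in wild type mice.

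The 10 genes did not vary together as a whole over the libraries. Among their 45 pairs, the Pearson correlation of log2 values over 24 libraries was positive in 20 and above 0.5 in 9, with a median of -0.02. All 9 lay among Hk2, Pgk1, Ldha, Bnip3 and Ankrd37, of whose pairs only Ankrd37 with Bnip3 was lower (0.450). These libraries share groups and tissue makeup, so the coefficients are descriptions only. The highest were those of Ldha with Bnip3 (0.831), Ldha with Pgk1 (0.822), Ldha with Hk2 (0.798) and Pgk1 with Bnip3 (0.766), and the lowest those of Ankrd37 with Adm (-0.798), Pgk1 with Adm (-0.674) and Pfkfb3 with Bnip3 (-0.614). Among 15737 protein-coding genes, those most like each member over the same 24 libraries differed from member to member. For Pfkfb3 they were Tlr8 (0.858), Raet1d (0.843) and Parvg (0.837). Slc2a1 was most like Cspg5 (0.969), Arl6ip1 (0.934) and Rdh10 (0.930), and Hk2 was most like Alkbh7 (0.889), Stard10 (0.883) and Ybx3 (0.871). For Pgk1 the nearest was the pyruvate kinase gene Pkm (0.917), and for Ldha Ndufaf5 (0.901), the glycolytic isomerase Gpi1 (0.899) and Mllt11 (0.899). Genes near Egln3 included Wnt4 (0.926) and P2ry2 (0.924). Ankrd37 was nearest to Unc119 (0.960), a gene strongly expressed in photoreceptors, then Ccndbp1 (0.949) and Slc25a33 (0.948). Bnip3 was nearest to Fgf13 (0.952), Got1 (0.944) and Bzw2 (0.902), and Adm to the melanocyte gene Mlana (0.943), Paqr6 (0.927) and Rem1 (0.899). Car9 had no gene above 0.802 (Trappc2l).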

How the data were processed

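Choroidal RNA of 24 libraries was used, 9 wild type and 7 Ceacam1-/- with laser and 4 of each without. The authors prepared SMART-Seq libraries, quantified reads with Salmon 1.10.3 against GRCm39, imported them with tximport into DESeq2 1.44.0 and removed 1 outlier library that is not named. The deposited values, a signal per gene, are their normalized counts, which are estimates and not whole reads, so that count tests were not run. They summed to between 23704346 and 35094410 per library, after scaling by the authors, and these sums limit precision without giving the depth. Of the gene identifiers, 99.1% matched the annotation.

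The test was limma (version 3.58.1, R 4.3.3) with a variance trend, on log2(normalized count + 1), over genes with a mean of at least 10, at an adjusted p of 0.05 (Benjamini-Hochberg). Fold changes are on that scale, which understates changes of low genes. Laser and its interaction with genotype used 1 model of the 24 libraries. Genotype used the 8 libraries without or the 16 with laser. The authors' sex covariate was not used, since the labels give no sex. The test was checked on simulated data. The members and gene lists were chosen with earlier results of these data known. All members are named in every comparison, and from the further pathway lists those that passed, up to the 4 with the smallest p on either side, with Hif1a, Epas1, Vhl, Egln1 and Vegfa. From each marker list the most abundant gene is named, and for each member the 3 most alike genes. Some genes that this rule selects are not reported here. Settings that leave out libraries 14, 15, 18, 21 and 23, and the joint rod and muscle covariates, were chosen after the data were seen. Genotype is tested within each laser condition, and the laser comparisons share control libraries with the interaction. Laser libraries are numbered 1 to 19 and the others 21 to 28, so that an unlabelled difference in handling and the laser cannot be told apart.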

Additional observations from a re-analysis of the deposited data

Results flagged for a closer look

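In the 4 groups of 4, 4, 7 and 9 libraries, the highest or lowest library lay far from the rest in 2 of 40 groups of member values screened, where chance gives about 1 in 20. Far means that its gap to the nearest library, over the range of the group on the log2(count + 1) scale, was above Dixon's 95% critical value. Egln3 in Ceacam1-/- laser library 15 (3941, against 65 to 397 in the other 6 libraries) did not reach that value on this scale. Pgk1 in wild type laser library 17 was 5284, below the 7621 to 9049 of the other 8 libraries. Car9 in library 23, Ceacam1-/- without laser, was 0, while the other 3 libraries of the group held 44.3 to 59.5. Library 23 was also the library of its group with the highest rod sum (639761).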

How the results depend on the processing

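No paired analysis was possible because the library numbers are not shared between groups. In wild type mice after laser, 2 members passed; 1 passed with a pseudocount of 0.5, upper-quartile scaling, no variance trend or a rod covariate, 0 without the filter, with a Y-linked covariate or with rod and muscle covariates, 3 with a muscle covariate (Pfkfb3, Bnip3 and Car9), 4 in a fit of the compared libraries alone and 5 with array weights. Of 19950 genes, 1949 were higher and 1610 lower with a muscle covariate, and 3238 and 3267 with array weights. Of 19529 genes in the fit of the compared libraries alone, 1588 were higher and 686 lower. Leaving out single libraries gave 0 to 2 members. Pfkfb3 did not pass without library 1, 3, 13, 22, 26 or 27 (highest adjusted p = 0.187, limma), and Bnip3 did not pass without library 1, 2, 3, 12, 13, 16, 17, 19, 21, 22 or 27 (highest 0.184), while the direction of both held. In Ceacam1-/- mice 0 members passed, and 4 with array weights, where 1895 genes were higher and 1656 lower of 19950. Without single libraries 0 to 1 passed, Egln3 without library 15 and Pfkfb3 without library 23. With array weights 1 member, Slc2a1, passed between genotypes with laser, where 88 genes were higher and 209 lower of 19757.

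Genes passing after laser in wild type mice numbered 1053, and 6505 with array weights, 2274 from the compared libraries alone, 3559 with a muscle covariate, 636 with rod and muscle covariates, 1645 without libraries 14, 15, 18, 21 and 23, and 479 (without library 21) to 1162 without single libraries, with 554 without library 27. In Ceacam1-/- mice they numbered 742, and 437 without the filter, 3551 with array weights, 38 from the compared libraries alone, 489 with a muscle covariate, 2005 without libraries 14, 15 and 18, 2923 without 14, 15, 18, 21 and 23, and 148 (without library 25) to 2488 (without library 23) without single libraries, with 466 without library 5 and 255 without library 24. Between genotypes, 0 to 1 passed without laser (1 without the trend, with array weights or without library 24). With laser 4 passed, 297 with array weights, 9 in the fit of 24 libraries, 2 with a minimum mean of 50 or without libraries 14, 15 and 18, 1 with muscle or rod and muscle covariates, and 4 to 61 without single libraries (61 without library 19, 25 without library 17).

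The following log2 differences changed sign, and the cause was not tested. For laser in wild type mice they were Ankrd37 (0.063) and Adm (-0.076) with the rod covariate, and Pgk1 (0.058), Ldha (0.045), Ankrd37 (0.058) and Adm (-0.027) with rod and muscle. For laser in Ceacam1-/- mice they were Car9 (0.0083) with a pseudocount of 0.5, Pgk1 (0.037) and Ldha (0.079) with quantile normalization, Ankrd37 (-0.18) and Car9 (0.71) with rod, Ankrd37 (-0.45) and Car9 (1.89) with muscle, Ankrd37 (-0.18) and Car9 (1.81) with both, Ankrd37 (-0.46), Adm (0.26) and Car9 (0.19) without libraries 14, 15 and 18, and Adm (0.13) without all 5. For the interaction they were Pgk1 (-0.18), Ldha (-0.18) and Bnip3 (-0.0037) with array weights, Pgk1 (-0.21), Ldha (-0.12), Ankrd37 (-0.24) and Car9 (0.36) with rod, Pgk1 (-0.0054) and Car9 (0.074) with muscle, Pgk1 (-0.22), Ldha (-0.13), Ankrd37 (-0.24) and Car9 (0.33) with both, Hk2 (-0.18), Pfkfb3 (0.019), Pgk1 (-0.30), Ldha (-0.33) and Adm (0.069) without the 3 libraries, and Hk2 (-0.46), Pfkfb3 (0.10), Pgk1 (-0.35), Ldha (-0.47) and Egln3 (-0.031) without all 5. For genotype without laser they were Ankrd37 (0.29) and Car9 (-0.51) with rod, Hk2 (0.022) with muscle, Hk2 (0.25), Pgk1 (0.0055), Ldha (0.16), Ankrd37 (0.35) and Adm (-0.086) with both, and Hk2 (0.19) and Ldha (0.039) without libraries 21 and 23. For genotype with laser they were Ldha (-0.027) and Bnip3 (-0.0024) with upper-quartile scaling, Pgk1 (0.10) with quantile normalization, Ldha (-0.39), Bnip3 (-0.47) and Adm (0.055) with array weights, Pfkfb3 (0.065), Ldha (-0.028) and Bnip3 (-0.040) with Y-linked genes, Pfkfb3 (0.16), Ldha (-0.22) and Bnip3 (-0.24) with rod, Pfkfb3 (0.082), Ldha (-0.13), Egln3 (0.48), Bnip3 (-0.11), Adm (0.022) and Car9 (0.47) with muscle, Pfkfb3 (0.085), Ldha (-0.14), Egln3 (0.47), Bnip3 (-0.11), Adm (0.027) and Car9 (0.47) with both, and Hk2 (-0.27), Pfkfb3 (0.15), Ldha (-0.43), Ankrd37 (-0.21), Bnip3 (-0.41) and Adm (0.23) without the 3 libraries.

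Leaving out single libraries turned Slc2a1 for laser in wild type (-0.0020 to 0.46), Pgk1 (-0.24 to 0.11) and Car9 (-1.62 to 0.35) for laser in Ceacam1-/- mice, and Pgk1 (-0.084 to 0.27), Egln3 (-0.51 to 0.81), Ldha (-0.024 to 0.31) and Pfkfb3 (-0.38 to 0.040) for the interaction. It turned Slc2a1 (-0.28 to 0.19), Hk2 (-0.33 to 0.25), Pfkfb3 (-0.077 to 0.34), Pgk1 (-0.28 to 0.072), Ldha (-0.30 to 0.0084), Egln3 (-1.20 to 0.11), Ankrd37 (-0.79 to 0.19) and Adm (-0.050 to 0.43) for genotype without laser, and Pfkfb3 (-0.13 to 0.045), Pgk1 (-0.17 to 0.075), Ldha (-0.12 to 0.13) and Bnip3 (-0.18 to 0.17) with laser. None of these had passed the test. Car9 had a mean of 24.8 counts.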
